A study of Mus musculus with 27 samples.

Results

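A set of 9 genes, Bcorl1, Chd4, Zfp950, Sympk, Ube2h, Kremen1, Pigs, Tmem63b and Trip10, was followed through the ileum, cecum and colon of mice fed arsenic. They are 9 of the 52550 genes in a table of raw read counts, each matched to 1 Ensembl identifier by its symbol. They were chosen because the change on arsenic feed differed between the ileum, where the small intestine ends, and the cecum, the pouch at the start of the large intestine. The values that chose them are therefore given for these 2 regions as a description, with no test. Only the change in the colon, which is not part of that difference, carries a test, although the colon libraries share the estimate of spread in the fit that ranks the difference. Male C57BL/6 mice aged 6 weeks were acclimatized for 7 days and then ate, for 60 days, either standard feed into which arsenic had been blended at 30 µg/g or the standard feed alone. Sodium arsenite made up 72.7% of that arsenic, sodium DMA 19.0%, sodium arsenate 7.3% and sodium MMA 1.0%. Poly-A RNA was sequenced from 6 groups: ileum arsenic (n = 5) and ileum control (n = 4), cecum arsenic (n = 5) and cecum control (n = 4), colon arsenic (n = 4) and colon control (n = 5). Each of the 27 libraries held 15717600 to 18208518 counted reads. The labels do not say that libraries of a group came from separate animals or that equal numbers in different regions mark the same mouse, so p-values measure the spread between libraries.

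The 9 genes belong to unrelated machines of the cell. Bcorl1 and Chd4 are parts of chromatin complexes that keep genes silent, Sympk is a scaffold of the machinery that cuts and polyadenylates mRNA, and Ube2h hands ubiquitin to a ligase that marks proteins for destruction. Kremen1 sits in the plasma membrane and dampens Wnt signalling, the pathway that maintains the stem cells of the gut crypt. Pigs attaches GPI anchors to proteins, Tmem63b is a cation channel opened by membrane stretch, and Trip10 bends membranes and links them to actin.

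Promoter sequences were available for 8 of the 9 genes in RefSeq on GRCm38.p6, as the 250 bases before each annotated start, with 10 windows in all because Chd4 and Ube2h have a pair each. The windows of 3 genes are shown, those of the gene with the widest spread of changes (Bcorl1), of the gene whose groups were apart in the cecum but not in the ileum (Ube2h) and of the 1 gene with lower levels on arsenic feed in the ileum (Zfp950). Capitals mark an E-box (CACGTG) in Bcorl1 at chrX:48341108-48341357 on the plus strand, a cAMP response element (TGACGTCA) in Ube2h at chr6:30304540-30304789 on the minus strand, and CCAAT boxes, read as CCAAT or ATTGG, in Zfp950 at chr19:61140841-61141090 on the minus strand.
Bcorl1: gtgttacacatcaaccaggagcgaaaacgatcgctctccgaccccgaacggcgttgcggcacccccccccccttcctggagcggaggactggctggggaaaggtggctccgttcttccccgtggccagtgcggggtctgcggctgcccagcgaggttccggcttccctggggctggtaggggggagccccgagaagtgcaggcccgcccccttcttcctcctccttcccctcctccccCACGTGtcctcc
Ube2h: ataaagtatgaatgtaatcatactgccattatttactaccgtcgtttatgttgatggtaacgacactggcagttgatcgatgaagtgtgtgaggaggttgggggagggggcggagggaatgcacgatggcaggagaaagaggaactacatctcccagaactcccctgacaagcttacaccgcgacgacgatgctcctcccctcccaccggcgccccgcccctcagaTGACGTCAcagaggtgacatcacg
Zfp950: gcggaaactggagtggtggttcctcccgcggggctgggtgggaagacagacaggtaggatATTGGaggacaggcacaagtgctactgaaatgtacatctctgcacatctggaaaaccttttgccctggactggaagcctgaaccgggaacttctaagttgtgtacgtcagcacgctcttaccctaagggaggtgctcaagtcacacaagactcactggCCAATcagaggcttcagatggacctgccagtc
Bcorl1 was the only one of the 8 genes with the E-box, which 6.02% of all 32851 windows held, and Ube2h the only one with the cAMP response element, which 1.55% held. A CCAAT box stood in windows of 3 genes, Chd4, Pigs and Zfp950, or 3 of the 10 windows, against 33.8% of all windows. The GC box (GGGCGG) stood in windows of 7 of the 8 genes, Zfp950 being the exception, or 8 of the 10 windows, against 32.7% of all windows. The metal response element core was searched as TGCGCNC, found in Pigs and Tmem63b and in 12.5% of all windows, and as TGCACNC, found in Pigs and in 10.4% of all windows. The antioxidant response element core (TGACNNNGC, 10.2% of all windows), the heat shock pair (GAANNTTC, 6.69%) and the clock D-box (TTATGTAA, 0.819%) were in none of the 10 windows. Both strands were searched. The cAMP and the antioxidant pattern share the start TGAC, but a stretch cannot match both from that start, and a match is a run of letters, not a measured binding site. The windows also differed in CpG pairs: Zfp950 had 6, the median of all windows, whereas Bcorl1 and Pigs had 18, Sympk had 30 and Tmem63b had 31.

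Levels are read counts scaled to library size (CPM), with TMM factors over the 27 libraries, and log2 changes on arsenic feed come from an edgeR fit of the 9 libraries of a region, given ± SE. Within each list of values, arsenic libraries run from number 11 upward and control libraries from number 1 upward, leaving out the numbers that have no library. Groups are said to be apart when every arsenic library lies on the same side of every control library.

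Ileum arsenic libraries 14 and 15 held almost no Fabp6, the bile acid binding protein of ileal enterocytes, at 6.13 and 1.33 CPM, where the other 7 ileum libraries held 219 to 4270 CPM. Without both, the ileum changes were 0.79 for Bcorl1, 0.90 for Chd4, 0.70 for Kremen1, 0.89 for Pigs, 0.20 for Ube2h, 0.34 for Trip10, 0.28 for Sympk, 0.64 for Tmem63b and -1.25 for Zfp950, close to the values with them. Library 15 was the highest of the ileum arsenic group for 7 of the 9 genes, ileum control 5 the highest of its group for 7, cecum control 1 for 7 and colon control 1 for 5. The TMM factor of ileum arsenic 15 was 0.8242, where the other ileum libraries had 0.9799 to 1.1256, and a lower factor raises every CPM of a library. The part of scaling in its rank was not tested.

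**Figure D1:**
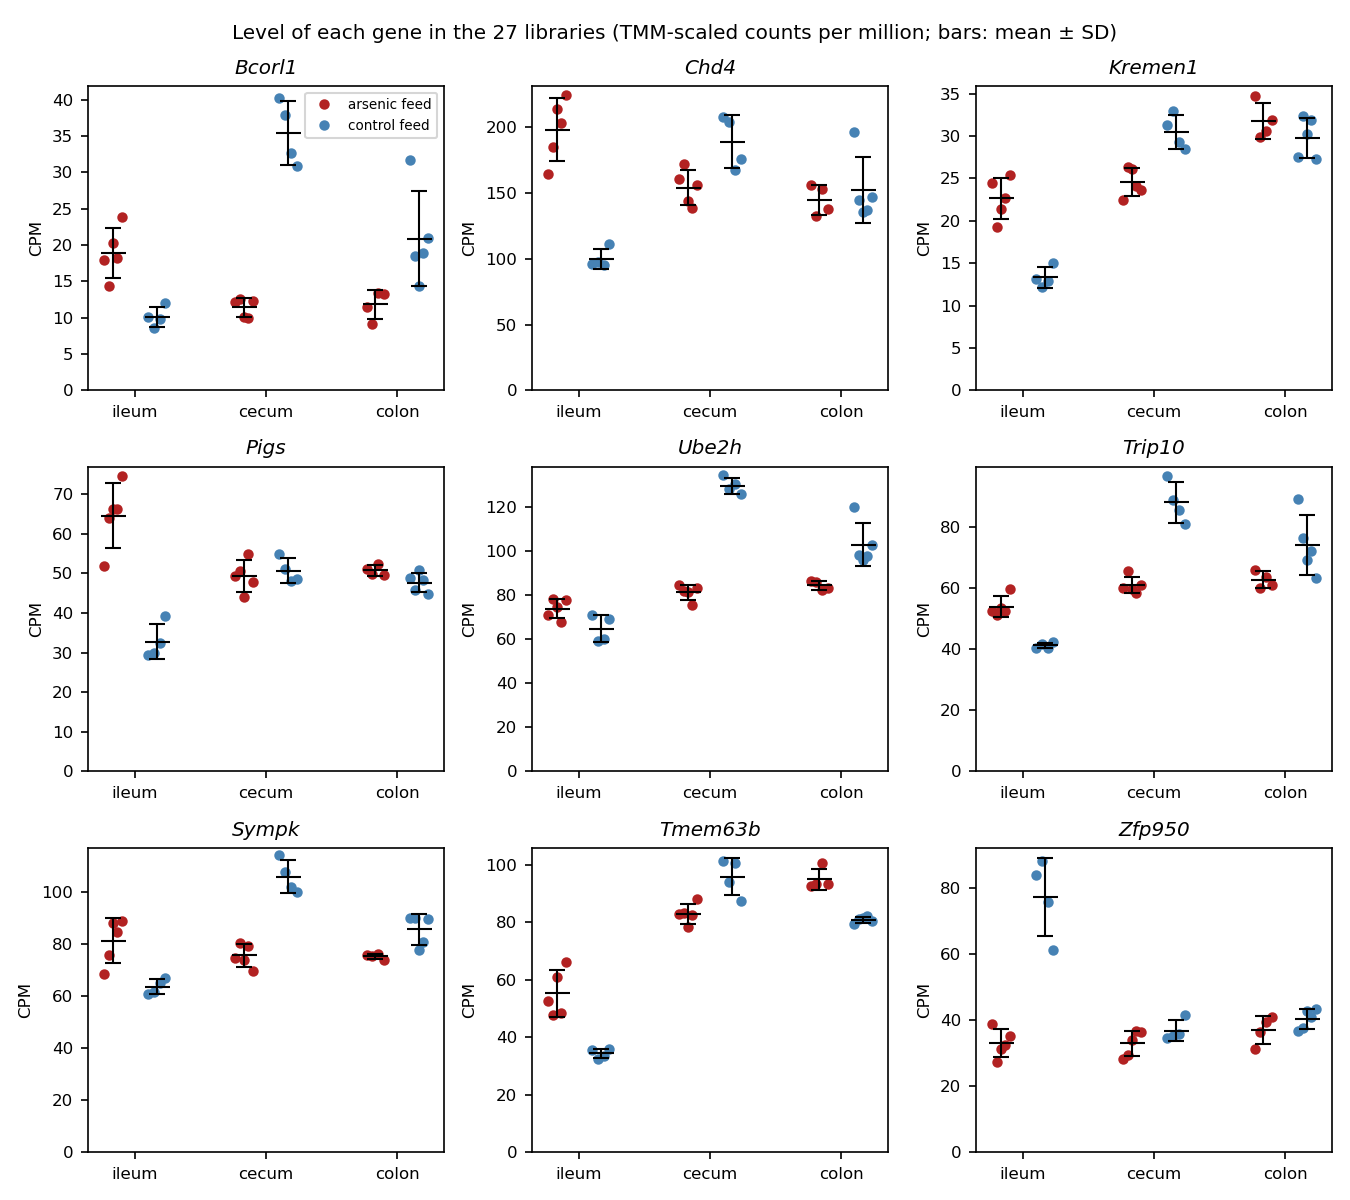
Levels of the 9 genes in the 27 libraries, in TMM-scaled CPM (vertical axis, starting at 0), for arsenic feed (red, left of each pair) and control feed (blue, right), with bars for the mean and SD of each group. In the ileum the arsenic libraries lie above the control libraries for 7 genes and below them for Zfp950, and in the cecum they lie below them for 5 genes.

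Bcorl1 encodes a corepressor of the PRC1.1 Polycomb complex and spans chrX:48341358-48408049 on the plus strand of GRCm38. In the ileum Bcorl1 stood at 18.0, 14.3, 20.2, 18.2 and 23.8 CPM on arsenic feed, against 10.1, 8.62, 9.81 and 11.97 CPM on control feed, a log2 change of 0.86 ± 0.16. Every ileum arsenic library was above every ileum control library, with means of 18.9 ± 3.49 CPM on arsenic feed and 10.1 ± 1.39 CPM on control feed (SD). The cecum showed the opposite order, at 12.2, 12.5, 10.1, 9.98 and 12.2 CPM on arsenic feed, against 40.3, 37.9, 32.7 and 30.8 CPM on control feed. All 5 cecum arsenic libraries were below the 4 control libraries, and the log2 change of -1.60 ± 0.10 was the lowest of the 9 genes in any region. In the colon the levels were 11.5, 9.17, 13.4 and 13.3 CPM on arsenic feed, against 31.7, 18.5, 14.4, 18.9 and 21.0 CPM on control feed. The colon groups were apart in the direction of the cecum, with a log2 change of -0.81 ± 0.22 that missed the threshold over all genes (edgeR adjusted p = 0.123, unadjusted p = 0.00348). Colon control 1 was the highest library, and without it the change was -0.61 (edgeR adjusted p = 0.0642).

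Chd4 encodes the ATPase of the NuRD complex, which moves nucleosomes and removes acetyl groups from histones. It lies at chr6:125095981-125130591 on the plus strand. Its ileum levels were 164, 185, 214, 203 and 225 CPM on arsenic feed, against 95.8, 97.5, 95.1 and 111 CPM on control feed. The ileum groups were far apart, at means of 198 ± 24.1 CPM on arsenic feed and 99.9 ± 7.65 CPM on control feed (SD), and the log2 change of 0.95 ± 0.11 was the highest of the 9 genes. In the cecum it stood at 161, 172, 144, 138 and 156 CPM on arsenic feed, against 208, 204, 168 and 176 CPM on control feed, a log2 change of -0.25 ± 0.08. The cecum groups overlapped, since the highest arsenic library (number 12) was above the lowest control library (number 4). Colon levels were 156, 133, 153 and 138 CPM on arsenic feed, against 197, 145, 136, 137 and 147 CPM on control feed. These overlapped too, the log2 change of -0.07 ± 0.12 was not called (edgeR adjusted p = 0.872), and its sign turned to 0.04 without colon control 1, the highest of the 9 libraries.

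Zfp950 is a zinc finger protein gene at chr19:61053840-61140840 on the minus strand. It was the only one of the 9 with lower levels on arsenic feed in the ileum. There it stood at 38.8, 27.4, 31.1, 32.6 and 35.1 CPM on arsenic feed, against 83.8, 88.0, 75.7 and 61.2 CPM on control feed, a log2 change of -1.26 ± 0.13. The means were 33.0 ± 4.28 CPM on arsenic feed and 77.2 ± 11.8 CPM on control feed (SD), with a wide gap between the lowest control library (number 5) and the highest arsenic library (number 11). In the cecum the levels were 28.3, 29.6, 34.0, 36.6 and 36.3 CPM on arsenic feed, against 34.5, 35.2, 35.8 and 41.4 CPM on control feed, a log2 change of -0.12 ± 0.09. The cecum groups overlapped, and both were close to the level of the ileum on arsenic feed. In the colon the levels were 31.4, 36.4, 39.5 and 41.1 CPM on arsenic feed, against 36.6, 37.7, 42.8, 41.0 and 43.2 CPM on control feed. They overlapped, with a log2 change of -0.11 ± 0.10 (edgeR adjusted p = 0.677), so the ileum on control feed was the 1 group of 6 in which Zfp950 stood high.

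Sympk encodes symplekin, which holds together the factors that cut the 3′ end of pre-mRNA. It lies at chr7:19024377-19054618 on the plus strand. Ileum levels were 68.7, 76.0, 88.0, 84.8 and 88.9 CPM on arsenic feed, against 61.0, 61.5, 65.0 and 67.2 CPM on control feed, a log2 change of 0.31 ± 0.09. The groups were apart by a narrow gap, between arsenic library 11 and control library 5. In the cecum Sympk stood at 74.8, 80.5, 74.0, 79.2 and 69.8 CPM on arsenic feed, against 114, 108, 102 and 99.9 CPM on control feed, a log2 change of -0.45 ± 0.06. The cecum gap was wider and in the other direction, with means of 75.7 ± 4.31 CPM on arsenic feed and 106 ± 6.42 CPM on control feed (SD). Colon levels were 75.8, 75.3, 76.3 and 73.8 CPM on arsenic feed, against 90.1, 90.1, 77.6, 80.8 and 89.7 CPM on control feed. The colon groups were apart in the direction of the cecum, at a log2 change of -0.18 ± 0.07 that was not called (edgeR adjusted p = 0.29, unadjusted p = 0.0326).

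Ube2h encodes an E2 ubiquitin-conjugating enzyme that works with the CTLH ligase. It lies at chr6:30211289-30304539 on the minus strand. In the ileum it stood at 70.9, 78.2, 74.4, 67.8 and 77.4 CPM on arsenic feed, against 70.7, 59.0, 60.0 and 69.2 CPM on control feed, a log2 change of 0.15 ± 0.09. These groups overlapped, and the difference between their means, 73.7 ± 4.41 CPM on arsenic feed and 64.7 ± 6.04 CPM on control feed (SD), was small beside that in the cecum. Cecum levels were 84.6, 81.9, 81.1, 75.5 and 82.9 CPM on arsenic feed, against 134, 128, 130.4 and 126 CPM on control feed, a log2 change of -0.63 ± 0.06. All cecum arsenic libraries were far below all control libraries, with means of 81.2 ± 3.44 CPM on arsenic feed and 129.5 ± 3.63 CPM on control feed (SD) and little spread in either group. Colon levels were 86.1, 85.9, 82.0 and 83.3 CPM on arsenic feed, against 120.0, 98.2, 95.8, 97.4 and 103 CPM on control feed. The colon groups were apart, lower on arsenic feed, at a log2 change of -0.28 ± 0.08 that missed the threshold (edgeR adjusted p = 0.166, unadjusted p = 0.00726).

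Kremen1 encodes a receptor for Dickkopf (DKK) proteins that removes the Wnt coreceptor LRP6 from the cell surface. It lies at chr11:5191552-5261558 on the minus strand. Its ileum levels were 24.4, 19.2, 21.4, 22.7 and 25.4 CPM on arsenic feed, against 13.2, 12.2, 12.9 and 15.03 CPM on control feed, a log2 change of 0.73 ± 0.12. The ileum groups were apart, at means of 22.6 ± 2.46 CPM on arsenic feed and 13.3 ± 1.21 CPM on control feed (SD). In the cecum the gene stood at 22.5, 26.4, 26.1, 24.1 and 23.6 CPM on arsenic feed, against 31.3, 32.9, 29.3 and 28.5 CPM on control feed, a log2 change of -0.27 ± 0.08. The cecum groups were apart the other way, by a smaller difference. In the colon the levels were 34.8, 29.9, 30.6 and 31.9 CPM on arsenic feed, against 27.5, 32.3, 30.2, 31.8 and 27.2 CPM on control feed. The colon groups overlapped, with a log2 change of 0.10 ± 0.09 (edgeR adjusted p = 0.672).

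Pigs encodes a subunit of the GPI transamidase, the enzyme that joins the finished anchor to its protein. It lies at chr11:78328415-78342782 on the plus strand. In the ileum it stood at 51.8, 64.0, 66.4, 66.3 and 74.6 CPM on arsenic feed, against 29.5, 29.9, 32.4 and 39.1 CPM on control feed, a log2 change of 0.94 ± 0.12. The lowest arsenic library (number 11) was above the highest control library (number 5), and the means were 64.6 ± 8.20 CPM on arsenic feed and 32.7 ± 4.44 CPM on control feed (SD). Cecum levels were 49.4, 50.7, 44.0, 54.8 and 47.8 CPM on arsenic feed, against 55.0, 51.0, 48.1 and 48.7 CPM on control feed, a fitted ratio of 1.00. The cecum groups overlapped, and Pigs was the gene of the 9 with the smallest change there. Colon levels were 51.1, 49.9, 52.4 and 49.5 CPM on arsenic feed, against 48.8, 45.7, 50.9, 48.3 and 44.8 CPM on control feed. They overlapped as well, with a log2 change of 0.10 ± 0.07 (edgeR adjusted p = 0.58).

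Tmem63b encodes a mechanosensitive cation channel of the OSCA/TMEM63 family and lies at chr17:45660171-45686905 on the minus strand. Ileum levels were 52.7, 47.9, 60.9, 48.6 and 66.3 CPM on arsenic feed, against 35.4, 32.6, 33.4 and 36.0 CPM on control feed, a log2 change of 0.64 ± 0.11. The ileum groups were apart, and arsenic libraries 13 and 15 were the highest. In the cecum it stood at 82.9, 83.0, 78.3, 82.6 and 88.0 CPM on arsenic feed, against 101, 94.1, 100.4 and 87.4 CPM on control feed, a log2 change of -0.17 ± 0.06. The cecum groups touched, arsenic library 15 being just above control library 5. Colon levels were 92.5, 93.2, 100.5 and 93.3 CPM on arsenic feed, against 79.4, 81.0, 81.4, 82.0 and 80.5 CPM on control feed. Tmem63b was the 1 gene of the 9 whose colon groups were apart with arsenic higher, at a log2 change of 0.24 ± 0.06 that missed the threshold (edgeR adjusted p = 0.113, unadjusted p = 0.00289). Its exons share 288 bases (5.65% of their length) with the antisense gene Gm16172 and 106 bases (2.08%) with Mrpl14 on the opposite strand, and without strand in the counting reads from these stretches cannot be told apart.

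Trip10, also called CIP4, encodes an F-BAR protein that CDC42 recruits to curved membrane. It lies at chr17:57249455-57263665 on the plus strand. In the ileum it stood at 52.6, 51.1, 53.6, 52.4 and 59.9 CPM on arsenic feed, against 40.4, 41.7, 40.5 and 42.3 CPM on control feed, a log2 change of 0.35 ± 0.07. The ileum groups were apart, with a very narrow spread among controls, at means of 53.9 ± 3.44 CPM on arsenic feed and 41.2 ± 0.933 CPM on control feed (SD). Cecum levels were 60.2, 65.6, 59.8, 58.4 and 60.9 CPM on arsenic feed, against 96.8, 88.9, 85.5 and 80.9 CPM on control feed, a log2 change of -0.49 ± 0.06. The cecum groups were apart in the other direction. Colon levels were 66.1, 60.0, 63.7 and 61.1 CPM on arsenic feed, against 89.2, 76.4, 69.2, 72.2 and 63.2 CPM on control feed. The colon groups overlapped through control library 5, and the log2 change of -0.23 ± 0.10 was not called (edgeR adjusted p = 0.318, unadjusted p = 0.0411).

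**Figure D2:**
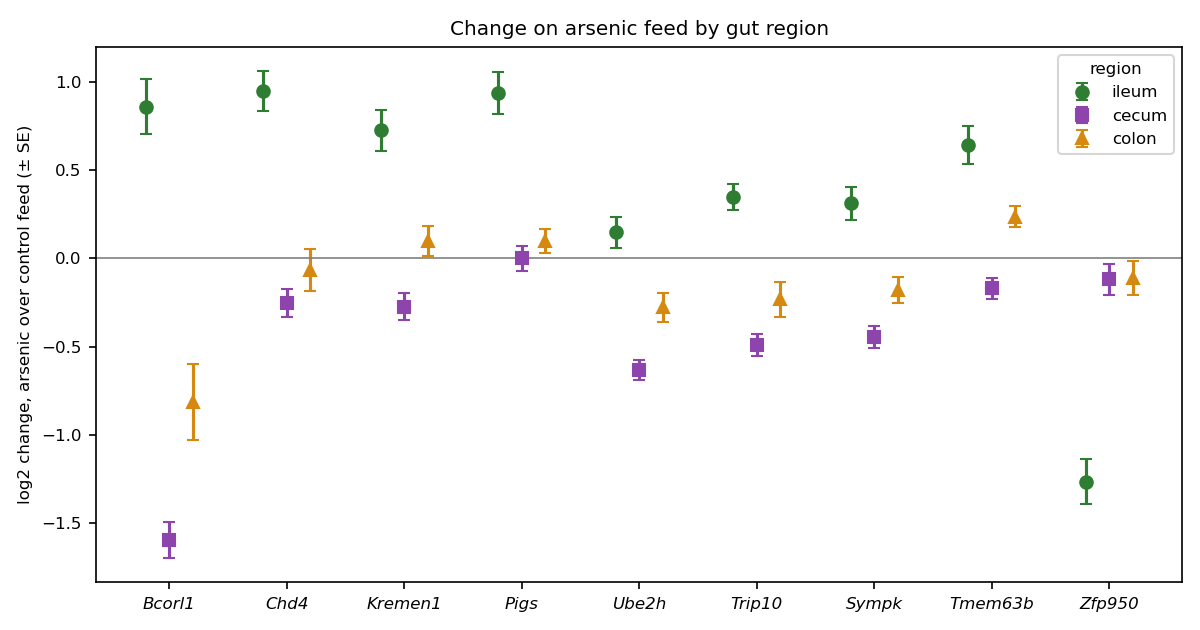
Log2 change on arsenic over control feed (vertical axis, with bars for the SE) of each gene in the ileum (circles), cecum (squares) and colon (triangles), from the edgeR fit of each region. The ileum value is above the cecum value for 8 genes and below it for Zfp950, and the colon value lies between the 2 for the same 8 genes.

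The label of opposite effects held in full for 4 of the 9 genes, Bcorl1, Kremen1, Sympk and Trip10, whose groups were apart in both regions with opposite order. Chd4, Pigs, Tmem63b and Zfp950 were apart in the ileum alone, with overlapping groups in the cecum, and Ube2h was apart in the cecum alone. Counted by region, 7 genes were higher and 1 lower on arsenic feed in the ileum with groups apart, where 8.52% and 4.88% of the 16305 genes tested were so. In the cecum 0 were higher and 5 lower with groups apart, where 7.24% and 15% of the 15590 genes tested were so. Since these libraries chose the 9 genes, nothing is read from those counts. Over the 9 genes the log2 change had an ileum median of 0.64, a cecum median of -0.27 and a colon median of -0.11, against -0.0022, 0.02 and -0.01 over all genes tested.

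The colon was the region in which the genes could be tested. The edgeR test called 0 of the 9 at an adjusted p under 0.05, where it called 107 of 16492 genes, or 0.649%. At an unadjusted p under 0.05 it passed 5 of the 9, Bcorl1, Sympk, Ube2h, Trip10 and Tmem63b, where 14.6% of all genes passed. Colon groups were apart for 4 genes, 1 higher and 3 lower on arsenic feed, against 7.82% of all genes (4% higher and 3.83% lower). The fit that ranked the genes also used the spread of the colon libraries, which can favour genes with little spread there. The counts passing unadjusted and with groups apart are therefore not independent of the choice, and nothing is read from them. With DESeq2 the count called was 3, Bcorl1 (adjusted p = 0.016), Ube2h (adjusted p = 0.0452) and Tmem63b (adjusted p = 0.00345). With each colon library left out in turn it was 0 in 9 of 9 fits. With 1 edgeR fit of all 27 libraries it was 2, Bcorl1 and Ube2h, but the spread in that fit also comes from the ileum and cecum libraries that chose the genes, so nothing is read from it. Of the 5 genes that passed unadjusted, the colon change was negative, as in the cecum, for Bcorl1, Sympk, Ube2h and Trip10, and positive, as in the ileum, for Tmem63b. Whether the colon effect differed from that in the ileum or the cecum was not tested.

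In terms of the difference that chose them, the change in the cecum minus that in the ileum was -2.53 for Bcorl1, -1.28 for Chd4, -1.08 for Kremen1, -1.02 for Pigs, -0.92 for Trip10, -0.89 for Tmem63b, -0.86 for Ube2h, -0.84 for Sympk and 1.07 for Zfp950 on the log2 scale. Ranked by the p-value of that difference over 17763 genes, 8 of the 9 stood among the first 9 places and Zfp950 at place 29, the first among genes with a positive difference. The gene just inside those ranks and not among the 9 was Dhcr7, of cholesterol synthesis, at place 4 with -1.59, and the gene just outside was Zc3h15 at place 10 with -0.79. Upper-quartile scaling moved the median difference of all genes to 0.15, against -0.01 with TMM. It gave -2.37 for Bcorl1, -1.12 for Chd4, -0.68 for Sympk and 1.22 for Zfp950, and the signs of the other 5 held too.

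Between the cecum and the ileum, the 9 genes were distributed unevenly on control feed and more evenly on arsenic feed. As a ratio of mean CPM of the cecum over the ileum, Bcorl1 stood at 0.604 on arsenic feed and 3.5 on control feed, and Tmem63b at 1.5 on arsenic feed and 2.79 on control feed. Kremen1 stood at 1.08 on arsenic feed and 2.29 on control feed, and Trip10 at 1.13 on arsenic feed and 2.13 on control feed. For Ube2h the ratio was 1.1 on arsenic feed and 2.0 on control feed, for Chd4 0.778 on arsenic feed and 1.89 on control feed. For Sympk it was 0.931 on arsenic feed and 1.66 on control feed, and for Pigs 0.764 on arsenic feed and 1.55 on control feed. Zfp950 ran the other way, at 0.999 on arsenic feed and 0.476 on control feed. On arsenic feed the cecum libraries were all above the ileum libraries for 1 gene (Tmem63b), all below for 1 (Bcorl1) and overlapped them for 7. On control feed the cecum libraries were all above the ileum libraries for 8 genes and all below for Zfp950. These are the libraries that chose the genes, so the ratios and counts describe the pattern and support nothing more. The share of all genes with cecum and ileum libraries apart was not computed.

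The colon, again a description across separate libraries, overlapped the cecum for most of the genes. The shares of all genes with these regions apart were not computed, so nothing is read from the counts. Colon libraries on arsenic feed overlapped the cecum libraries on arsenic feed for 7 genes and were all above them for Kremen1 and Tmem63b. On control feed the colon libraries overlapped the cecum libraries for 6 genes and were all below them for Sympk, Tmem63b and Ube2h. Against the ileum on arsenic feed, the colon libraries on arsenic feed were all above for Kremen1, Trip10, Ube2h and Tmem63b, all below for Bcorl1 and Chd4, and overlapping for Pigs, Sympk and Zfp950. The order of mean levels on control feed was cecum, colon, ileum for 8 genes, with overlapping cecum and colon libraries for Bcorl1, Chd4, Kremen1, Pigs and Trip10. For Bcorl1 they overlapped through colon control 1 alone, and the means of 20.9 ± 6.48 CPM in the colon and 35.4 ± 4.42 CPM in the cecum (SD) were farther apart than both SDs together. For Zfp950 the order was ileum, colon, cecum, with overlapping colon and cecum libraries.

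Levels can be compared between genes only per length, here CPM per kilobase of all annotated exons in GENCODE M21. In the control cecum Trip10 had 27.7, Ube2h 27.1, Chd4 23.6, Pigs 20.3 and Tmem63b 18.8 CPM per kilobase. Sympk had 10.1, Bcorl1 4.16, Kremen1 3.95 and Zfp950 3.46 CPM per kilobase, so by this length the 2 lowest in the cecum were Zfp950 and Kremen1. The order depends on the length used. All exons sum to 10615 bases for Zfp950, 7722 for Kremen1 and 8516 for Bcorl1, but their longest transcripts have 4825, 4856 and 7446. The smallest raw count behind any value of the 9 genes was 152 reads, for Bcorl1 in a control ileum library, and 7 of the 9 have exons longer in sum than the median of genes tested. Chd4 shares 63 bases (0.786% of its exons) with Mir7045 on the same strand, and 7 of the 9 genes shared no exon bases with another gene.

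In base composition 8 of the 9 genes were at or above the median GC content, with Ube2h at the median (percentile 50.2 of the genes tested). The GC content of the longest transcript, with a median of 49.6% over the genes tested, was 56.9% for Tmem63b, 56.3% for Pigs, 56.2% for Sympk, 55.5% for Trip10, 55.1% for Kremen1, 54.3% for Bcorl1, 52.9% for Chd4 and 49.6% for Ube2h. Zfp950 had 35.8%, a value at or above which all but 0.682% of the genes tested lay. The ileum showed a trend with GC content over all genes. The median log2 change there was -0.17 in the 3259 genes with the lowest GC, of which 15 were called higher and 232 lower, and 0.19 in the 3258 with the highest GC, of which 334 were called higher and 38 lower. In the cecum those medians were 0.07 and 0.00, and in the colon -0.03 and 0.05. The difference of cecum minus ileum had medians of 0.20 in the genes with the lowest GC and -0.23 in those with the highest. Of the former 219 were called higher and 59 lower, and of the latter 47 higher and 602 lower.

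With counts corrected for GC content in each library, an alternative chosen after seeing the data, the ileum changes of the 9 genes kept their signs. Trip10 moved to 0.20 and Sympk to 0.15, each by more than 1.5 times, and Tmem63b moved to 0.49 and Zfp950 to -1.05. Each of these 4 shifts was beyond 1 SD of the libraries within groups. Bcorl1 stood at 0.76, Chd4 at 0.88, Pigs at 0.78, Kremen1 at 0.60 and Ube2h at 0.16, each within 1 SD. The difference of cecum minus ileum then was -2.37 for Bcorl1, -1.15 for Chd4, -0.63 for Sympk and 0.76 for Zfp950. In the colon the correction left 0 of the 9 called, with Bcorl1 at -0.84 (edgeR adjusted p = 0.098) and Tmem63b at 0.17 (edgeR adjusted p = 0.284).

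**Figure D3:**
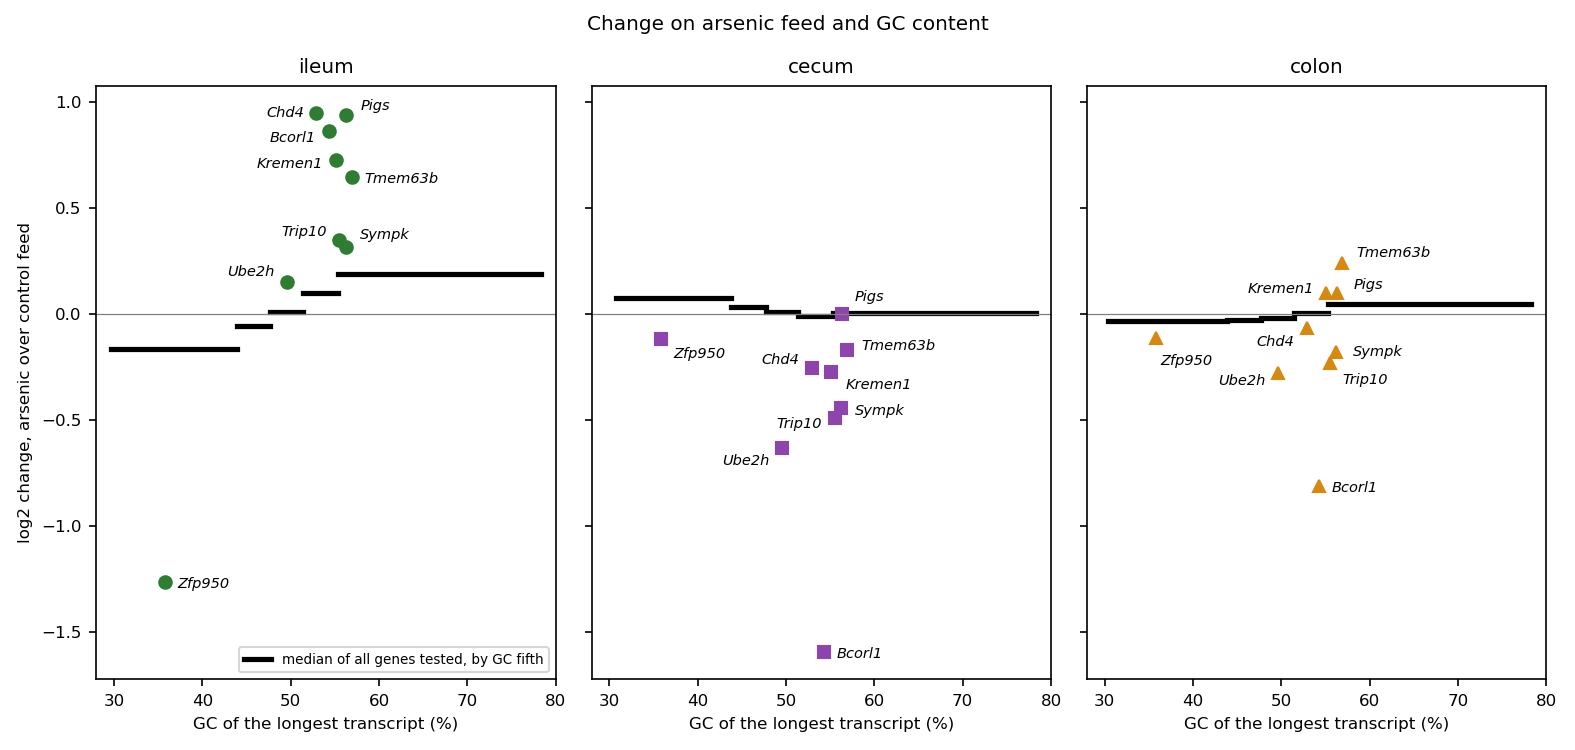
Log2 change on arsenic over control feed (vertical axis) against the GC content of the longest transcript in percent (horizontal axis) for the 9 genes in each region, with black bars for the median change of all genes in 5 bins of GC content with nearly equal numbers of genes. In the ileum the bars climb, with -0.17 at the lowest GC and 0.19 at the highest, and all 9 genes lie farther from 0 than the bar of their bin, Sympk (0.31) and Trip10 (0.35) above a bar at 0.19.

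By summed markers the ileum libraries stood apart from the others. The 8 markers of ileal enterocytes summed to 15910 to 47420 CPM in the ileum libraries and at most 2983 CPM in the cecum and colon libraries. The 6 epithelial markers of the large intestine summed to at most 663.6 CPM in the ileum libraries and at least 7554 CPM in the others. Fabp6, 1 of the 8, did not set ileum arsenic 14 and 15 apart, at 6.13 and 1.33 CPM, where cecum arsenic 14 had 70 CPM. Other measures differed between the diets, some of them with overlapping ranges. The summed level of nuclear retained RNAs (Malat1, Neat1, Kcnq1ot1 and Meg3, 4 of 4 measured, 0 of them at 0) was 660.8 to 996.8 CPM in ileum arsenic libraries, against 1179 to 1530 CPM in ileum controls. In the cecum the ranges overlapped, at 637.2 to 891.5 CPM in arsenic libraries and 867.6 to 1070 CPM in cecum controls. Genes of the positive arm of the circadian clock summed to 109.2 to 119.7 CPM in cecum arsenic libraries, against 147.1 to 181 CPM in cecum controls, and to 90.45 to 121.7 CPM in ileum arsenic libraries, against 136.4 to 160.7 CPM in ileum controls. In the colon they overlapped, at 102.1 to 139.2 CPM on arsenic feed and 134.2 to 204 CPM on control feed. Genes of the negative arm of the clock ran the other way in the cecum, at 495.6 to 670.9 CPM on arsenic feed, against 341.1 to 465.5 CPM on control feed. Epithelial markers of the large intestine (6 genes, 0 at 0) overlapped slightly, at 28830 to 33640 CPM in cecum arsenic libraries and 33500 to 41790 CPM in cecum controls. B cell and follicle markers (8 genes, 0 at 0) overlapped, at 10.19 to 209.7 CPM in cecum arsenic libraries and 2.821 to 43.94 CPM in cecum controls. The TMM factors of the cecum did not overlap, at 0.9025 to 0.9847 on arsenic feed and 0.8524 to 0.8835 on control feed. The part of these measures in the changes of the 9 genes was not tested, and in whole tissue fewer cells of a type and less RNA per cell cannot be told apart.

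The genes whose levels were most like each of the 9 over the 27 libraries, out of 13688 compared, were found by Pearson correlation of log2 CPM, given without a test because the libraries share regions and diets. Tmem63b was most like Scaf1 (r = 0.98) and Ece1 (0.97), Trip10 like Bicdl2 (0.95) and Gtf3c1 (0.94), and Ube2h like Tmem184b (0.94) and Kpna6 (0.92). Map3k4 headed the list both for Sympk (0.93) and for Bcorl1 (0.92), followed by Zc3h18 for Sympk (0.91) and Men1 for Bcorl1 (0.91). Kremen1 was most like Cep170b (0.93) and Pskh1 (0.93), Pigs like Wbp11 (0.90) and Lad1 (0.90), and Chd4 like Rps6ka1 (0.89) and Slc12a9 (0.89). Zfp950 had the lowest likeness, with Col11a2 (0.85) and Slc10a6 (0.85).

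The partners of the 9 genes in their complexes and pathways were listed by function, 9 lists with 121 genes tested in the colon. The counts for single lists given further on are to be read against the shares over all genes tested given here. In the colon 0 were called higher and 1 lower on arsenic feed, or 0.826%, where 0.364% of all genes were called higher and 0.285% lower. In the ileum 8 were higher and 7 lower of 119, or 12.6%, against 7.3% of all genes (4.02% higher and 3.28% lower). In the cecum 6 were higher and 26 lower of 119, or 26.9%, against 25.2% of all genes (11.3% higher and 13.9% lower). In the difference of cecum minus ileum 0 were higher and 22 lower of 121, against 11.4% of all genes (2.88% higher and 8.49% lower). These splits depended on scaling: with upper-quartile factors the difference counted 6 higher and 10 lower, and the cecum 12 higher and 21 lower. The following adjusted p-values are from edgeR's quasi-likelihood test over all genes.

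Of the 14 partners of Chd4 in NuRD, 2 were higher and 1 lower in the ileum, 0 higher and 5 lower in the cecum, and 0 were called in the colon, with list medians of 0.14, -0.05 and 0.00. In the ileum Mta1, a subunit that binds the deacetylase, rose to 35.8 ± 3.59 CPM on arsenic feed, against 21.3 ± 2.56 CPM on control feed (log2 change 0.71, adjusted p = 0.0102). Its relative Mta3 rose to 44.8 ± 6.77 CPM on arsenic feed, against 29.5 ± 1.98 CPM on control feed (log2 change 0.56, adjusted p = 0.0204). Chd3, the ATPase that can take the place of Chd4, fell in the ileum to 168 ± 46.5 CPM on arsenic feed, against 282 ± 21.6 CPM on control feed (log2 change -0.79, adjusted p = 0.0232), opposite to Chd4 in the same libraries. In the cecum the deacetylase gene Hdac1 fell to 232 ± 11.7 CPM on arsenic feed, against 342 ± 35 CPM on control feed (log2 change -0.52, adjusted p = 0.000167). Lower there too were Mta2 at -0.26 (adjusted p = 0.00634) and Gatad2b at -0.27 (adjusted p = 0.00897). The difference of cecum minus ileum was called lower for 6 of the 14 and higher for 0, led by Mta1 at -0.80 (adjusted p = 0.000453), Mta2 at -0.59 (adjusted p = 0.00232) and Gatad2a at -0.89 (adjusted p = 0.00238). Of the 10 partners of Bcorl1 in PRC1.1, 0 were called in the ileum and colon and Rybp alone fell in the cecum, to 40.0 ± 4.36 CPM on arsenic feed, against 55.3 ± 9.71 CPM on control feed (log2 change -0.43, adjusted p = 0.0122). The list had an ileum median of 0.06, a cecum median of -0.16 and a colon median of -0.06. The difference of cecum minus ileum was called lower for Bcor, the paralog of Bcorl1, at -0.79 (adjusted p = 0.00839), and for Ring1 at -0.57 (adjusted p = 0.00716). Of the 7 corepressors that KRAB zinc finger proteins use, 0 were called in the ileum and colon and 3 were lower in the cecum: Cbx1 at -0.41 (adjusted p = 0.000551), Atf7ip at -0.33 (adjusted p = 0.00246) and Setdb1 at -0.18 (adjusted p = 0.0465). Cecum minus ileum was called lower for Cbx1 at -0.45 (adjusted p = 0.0101) and Trim28 at -0.57 (adjusted p = 0.0199).

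Of the 20 partners of Sympk in 3′ end processing, 0 were higher and 4 lower in the ileum, where Sympk itself stood higher, and 0 were higher and 4 lower in the cecum, with list medians of -0.04 and -0.05. In the ileum the cleavage factor gene Cstf3 fell to 23.5 ± 1.87 CPM on arsenic feed, against 31.9 ± 0.187 CPM on control feed (log2 change -0.48, adjusted p = 0.0144). Pcf11 fell to 46.0 ± 5.75 CPM on arsenic feed, against 60.1 ± 4.46 CPM on control feed (log2 change -0.42, adjusted p = 0.0332), and the poly(A) polymerase gene Papolg fell to 12.1 ± 0.857 CPM on arsenic feed, against 16.4 ± 1.88 CPM on control feed (log2 change -0.48, adjusted p = 0.0332). In the cecum the poly(A) polymerase gene Papola was at -0.26 (adjusted p = 0.00653), Wdr33 at -0.20 (adjusted p = 0.0295) and Fip1l1 at -0.21 (adjusted p = 0.0324). Cecum minus ileum was -0.51 for Wdr33 (adjusted p = 0.00405), -0.34 for Fip1l1 (adjusted p = 0.0361) and -0.44 for Cpsf1 (adjusted p = 0.0458). Of the 11 genes of the CTLH ligase that Ube2h serves, 1 was higher and 1 lower in the ileum and 1 higher and 5 lower in the cecum, with list medians of -0.06 and -0.12. Rmnd5b, a RING subunit, rose in the ileum to 20.8 ± 1.72 CPM on arsenic feed, against 13.8 ± 0.415 CPM on control feed (log2 change 0.55, adjusted p = 0.0142), and Mkln1 fell to 63.8 ± 5.59 CPM on arsenic feed, against 81.4 ± 8.37 CPM on control feed (log2 change -0.39, adjusted p = 0.0383). Ypel5 rose in the cecum to 77.5 ± 3.57 CPM on arsenic feed, against 59.9 ± 8.95 CPM on control feed (log2 change 0.41, adjusted p = 0.00352). The RING subunit gene Maea fell there to 109 ± 4.43 CPM on arsenic feed, against 133 ± 8.55 CPM on control feed (log2 change -0.25, adjusted p = 0.00709), and Ranbp9 to 56.0 ± 2.45 CPM on arsenic feed, against 68.3 ± 3.29 CPM on control feed (log2 change -0.25, adjusted p = 0.00938). The difference of cecum minus ileum was called for 2 CTLH genes, at -0.54 for Maea (adjusted p = 0.00545) and -0.50 for Rmnd5b (adjusted p = 0.00759).

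Of the 14 tested genes around Kremen1 in the DKK and R-spondin arm of Wnt signalling, out of 18 listed, 1 was higher and 0 lower in the ileum, 1 higher and 2 lower of 13 in the cecum and 0 called in the colon. The Wnt coreceptor gene Lrp5 rose in the ileum to 76.7 ± 16.6 CPM on arsenic feed, against 46.8 ± 7.15 CPM on control feed (log2 change 0.67, adjusted p = 0.034), and its cecum minus ileum difference was -0.85 (adjusted p = 0.0042). In the cecum the other coreceptor gene, Lrp6, fell to 152 ± 9.48 CPM on arsenic feed, against 209 ± 18.5 CPM on control feed (log2 change -0.42, adjusted p = 0.000542). Kremen2 fell to 9.43 ± 1.40 CPM on arsenic feed, against 15.3 ± 2.86 CPM on control feed (log2 change -0.66, adjusted p = 0.00459), and Dkk3 rose to 18.9 ± 3.24 CPM on arsenic feed, against 14.9 ± 2.23 CPM on control feed (log2 change 0.39, adjusted p = 0.0469). Of the 22 GPI anchor genes, 3 were higher and 1 lower in the ileum, 3 higher and 3 lower in the cecum and 0 higher and 1 lower in the colon. Pigt, a fellow subunit of the transamidase with Pigs, rose in the ileum to 151 ± 29.6 CPM on arsenic feed, against 74.5 ± 17.0 CPM on control feed (log2 change 0.97, adjusted p = 0.0145). Piga, of the first step of anchor synthesis, fell to 16.5 ± 1.32 CPM on arsenic feed, against 25.3 ± 1.81 CPM on control feed (log2 change -0.65, adjusted p = 0.00896) and Pigo rose there to 48.6 ± 5.28 CPM on arsenic feed, against 33.4 ± 1.96 CPM on control feed (log2 change 0.50, adjusted p = 0.0159). In the cecum Piga fell as well, to 32.6 ± 2.42 CPM on arsenic feed, against 50.7 ± 1.45 CPM on control feed (log2 change -0.60, adjusted p = 8.03e-05). Pigf was at -0.71 there (adjusted p = 0.00226), and Pigk, the catalytic subunit of the transamidase, rose to 50.0 ± 1.78 CPM on arsenic feed, against 41.8 ± 1.25 CPM on control feed (log2 change 0.30, adjusted p = 0.0025). Cecum minus ileum was -1.04 for Pigt (adjusted p = 0.00551), -0.73 for the transamidase subunit gene Gpaa1 (adjusted p = 0.00518) and -0.46 for Dpm2 (adjusted p = 0.0155). Pigf, of the late steps of synthesis, was the 1 partner called in the colon, where it fell to 6.11 ± 0.521 CPM on arsenic feed, against 10.4 ± 1.22 CPM on control feed (log2 change -0.76, adjusted p = 0.0284). The call was lost in 7 of the 9 fits that left out a library, up to adjusted p = 0.133 without colon arsenic 12.

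Tmem63a, the closest relative of Tmem63b in the list of TMEM63, Piezo and TMC genes, moved in opposite directions in the regions. It rose in the ileum to 35.1 ± 5.17 CPM on arsenic feed, against 24.6 ± 1.46 CPM on control feed (log2 change 0.48, adjusted p = 0.0393), and fell in the cecum to 69.7 ± 1.82 CPM on arsenic feed, against 91.3 ± 5.97 CPM on control feed (log2 change -0.35, adjusted p = 0.000812). Its cecum minus ileum difference was -0.90 (adjusted p = 0.000103), 1 of the 22 called lower among partners. Of the 8 genes of that list tested in the ileum Tmem63a was the 1 called, and of the 9 in the cecum 0 were higher and 3 lower, the others being Tmc5 and Tmc7. Tmc5 fell to 198 ± 16.2 CPM on arsenic feed, against 286 ± 22.3 CPM on control feed (log2 change -0.49, adjusted p = 0.000188), and Tmc7 to 22.03 ± 3.85 CPM on arsenic feed, against 39.9 ± 4.94 CPM on control feed (log2 change -0.82, adjusted p = 0.000751). Of the 13 genes around Trip10 in CDC42 and F-BAR actin nucleation, 0 were called in the ileum and the colon. Was, an actin nucleation activator of blood cells, rose in the cecum to 3.79 ± 1.72 CPM on arsenic feed, against 1.54 ± 0.417 CPM on control feed (log2 change 1.34, adjusted p = 0.0189). Markers of B cells, T cells, smooth muscle, fibroblasts, and enteric neurons and glia also reached their highest cecum level in that group, all in overlapping ranges. The part of any cell type in the level of Was was not tested. Cecum minus ileum was -0.63 for Pacsin2 (adjusted p = 0.0235).

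Most partner calls in the ileum did not hold when libraries were left out. Of the 13 partners named there, Mta1 and Piga were called in each of the 9 fits that left out a library. Mkln1, Pcf11 and Tmem63a lost their call in 7 of the 9 fits, Chd3 and Papolg in 6, Lrp5 in 5, Mta3, Pigt, Pigo and Cstf3 in 3 and Rmnd5b in 1. The highest adjusted p of the others was 0.0865 for Mta3, 0.0892 for Chd3, 0.116 for Lrp5, 0.0687 for Pigt, 0.073 for Pigo, 0.0596 for Rmnd5b, 0.0649 for Cstf3 and 0.126 for Tmem63a, all without ileum control 2. It was 0.169 for Mkln1 and 0.139 for Papolg without ileum control 3, and 0.119 for Pcf11 without ileum control 1. With the GC correction 5 of the 13 remained called, Mta1, Mta3, Chd3, Piga and Pigt, and among the other 8 Cstf3 moved to -0.32, Mkln1 to -0.20, Papolg to -0.27 and Pcf11 to -0.26, each by more than 1.5 times. In the cecum Dkk3 (adjusted p = 0.138 without cecum control 1), Fip1l1 (0.081 without cecum arsenic 14), Setdb1 (0.0984 without cecum control 4), Wdr33 (0.0836 without cecum control 2) and Was (0.0578 without cecum control 2) lost their call in at least 1 such fit. Among the differences of cecum minus ileum the same held for Cbx1 (0.0554), Cpsf1 (0.117), Dpm2 (0.0687), Fip1l1 (0.122) and Pacsin2 (0.0888), each highest without ileum control 2, and for Trim28 (0.0631 without cecum control 1). With the GC correction 12 of the 18 named differences remained called. The call was lost for Ring1 at -0.37 (adjusted p = 0.108), Rmnd5b at -0.30 (adjusted p = 0.12), Trim28 at -0.35 (adjusted p = 0.119) and Cpsf1 at -0.23 (adjusted p = 0.278), each moved by more than 1.5 times, and for Dpm2 at -0.33 (adjusted p = 0.0736) and Pacsin2 at -0.50 (adjusted p = 0.101).

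**Figure D4:**
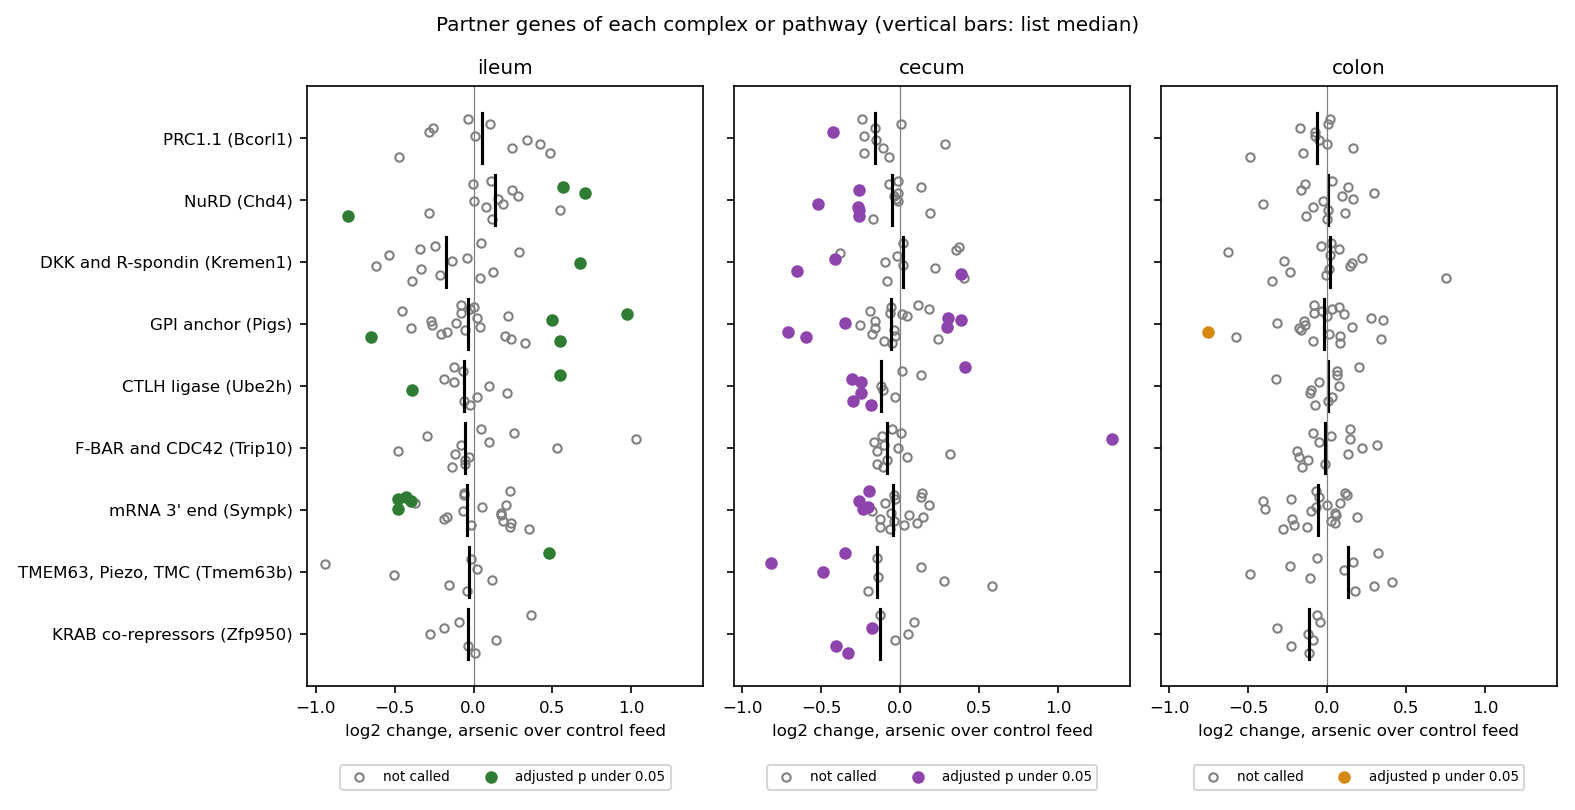
Log2 change on arsenic over control feed (horizontal axis) of the partner genes of each complex or pathway (one line per list, with the gene it belongs to in brackets) in the ileum, cecum and colon, with filled points for genes called at an adjusted p under 0.05, open points for the others and a vertical bar for the list median. In the cecum 26 of the 32 filled points are on the lower side, in the ileum 8 are higher and 7 lower, and in the colon 1 point, Pigf, is filled.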

How the data were processed

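Poly-A RNA libraries were read as 150 bp pairs. The authors deposited raw counts of reads per Ensembl gene for 27 libraries, and per the submitters' processing notes HISAT2 2.1.0, SAMtools, HTSeq 0.6.0 and DESeq2 1.6.3 were used. The genome build, annotation release and strand setting were not stated (not given in the sources used here), which leaves overlapping genes uncertain. Symbols were matched for 52403 of 52550 identifiers. The series' design text speaks of rats, the sample labels of mice.

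Genes were kept by filterByExpr (minimum count 10, minimum total 15), and all 9 genes passed in every region. edgeR 4.0.16 (R 4.3.3, limma 3.58.1) with TMM factors and its robust quasi-likelihood F-test were used for arsenic against control feed in each region. All 27 libraries were fitted together for the change in the cecum minus that in the ileum. A call is an adjusted p under 0.05 (Benjamini-Hochberg over all genes tested). CPM in the text use TMM factors over 27 libraries, and fitted changes those of the region. The correlations used log2 CPM with a prior count of 2. The procedure was tested on simulated data, where the share of false calls was above the threshold in the ileum and in the difference of cecum minus ileum.

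The 9 genes, the partner lists (members by function) and the marker lists were chosen with earlier results of these data known. The text names the called partners with the smallest p, at most 3 for each list and comparison. Alternatives were DESeq2 1.42.0, RLE factors, upper-quartile factors, no filter, a filter of 1 CPM in 4 libraries, 1 fit of 27 libraries, each library left out and a replicate block. GC offsets in 20 bins for each library and leaving out ileum arsenic 14 and 15 were added after seeing the data. Positions, exon lengths and GC content are from GENCODE M21 (GRCm38), with GC for 17745 of 17763 genes (99.9%). Figures were drawn with matplotlib 3.10.9.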

Additional observations from a re-analysis of the deposited data

Results flagged for a closer look

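Over the 9 genes in 6 groups each, 4 times a group held 1 library far from the rest by Dixon's criterion, which chance meets in about 1 of 20 groups. Colon control 1 stood at 196.5 CPM for Chd4, where the next library of its group had 146.9 CPM, and at 120.0 CPM for Ube2h, where the next had 102.5 CPM. Ileum control 5 stood at 111.3 CPM for Chd4, the next being 97.55 CPM. Colon arsenic 13 stood at 100.5 CPM for Tmem63b, the next being 93.32 CPM. For Bcorl1 and Sympk every colon arsenic library was below every colon control library, whereas every ileum arsenic library was above every ileum control library. The log2 change in the colon was -0.81 for Bcorl1 and -0.18 for Sympk, and the difference between colon and ileum was not tested.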

How the results depend on the processing

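In the colon the count of genes called, 107, became 656 with DESeq2 and 493 in 1 fit of all 27 libraries. With each library left out it was 6 to 61 in 8 fits and 351 without colon control 1 (range 6 to 351). The count among the 9 genes, 0, became 3 with DESeq2 and 2 in the fit of 27 libraries, and was 0 to 0 with a library left out. The colon change of Chd4 was -0.1138 to 0.0443 with a library left out, positive without colon control 1 alone. In the ileum the count, 1190, was 2105 with DESeq2, 2889 in the fit of 27 libraries, 544 with GC offsets, 673 without arsenic libraries 14 and 15, and 121 to 1583 with each library left out. It was 121 without control 2, 243 without control 3, 292 without control 1, 598 without arsenic 14, 639 without arsenic 12, 737 without arsenic 13 and 751 without control 5. In the cecum the count, 3933, was 2021 in the fit of 27 libraries and 3070 to 4313 with each library left out, and upper-quartile scaling split it 2448 higher and 1627 lower, against 1768 and 2165 with TMM. For cecum minus ileum the count, 2019 (511 higher, 1508 lower), was 1147 to 2642 with each library left out, lowest without ileum control 2, 1324 without cecum control 1, and 1069 higher and 748 lower with upper-quartile scaling. With the replicate number as a block it was 1142 (392 higher, 750 lower). The deviations of equally numbered ileum and cecum libraries correlated at -0.156 to 0.311. That cannot decide whether equal numbers mark the same mouse, since deviations in different tissues of a mouse need not be alike. The labels do not say so, and the main fit did not pair libraries. No paired analysis was possible between the diets because their numbers do not overlap.

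Of the values of single genes, 143 of 144 for the cecum, 138 of 144 for the colon and 149 of 153 for the ileum, over 16, 16 and 17 alternatives, stayed on their side of the threshold or within 1 SD. The 4 exceptions in the ileum were Trip10, Sympk, Tmem63b and Zfp950, all with GC offsets. The causes of the moved counts were not tested, and a fit that leaves out 1 library also has fewer libraries. The 9 genes had at least 152 reads in every library.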
